A study of Mus musculus with 2 samples.

Results

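The genes described here move calcium into and out of the sarcoplasmic reticulum, the internal calcium store of the muscle cell. There are 10 of them, chosen by symbol, out of 55536 annotated genes: Atp2a2, Pln, Sln, Ryr2, Casq2, Casq1, Hrc, Trdn, Asph and Fkbp1b. Each symbol matched 1 identifier of the gene table. The samples were hearts of 2 female B6CASTF1/J mice, an F1 hybrid of the C57BL/6J and CAST/EiJ strains, taken at 2 months of age. The labels name no treatment and number the animals as biological replicates of a single group. They give each library its own tissue sample and animal number but the same donor entry, so n = 2 rests on reading these as separate animals. Each animal gave 1 total RNA library, started from 300 ng and depleted of ribosomal RNA. With 1 group the labels imply no contrast, so levels, ratios and transcript use are described, and the 2 animals are set beside each other. Reads of both parental alleles were counted against mm10, an assembly of the C57BL/6J strain, and any loss of CAST/EiJ reads was not tested.

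At each heartbeat, calcium that enters through channels of the surface membrane opens the ryanodine receptor in the sarcoplasmic reticulum, and the calcium released there drives contraction. Relaxation follows as a calcium pump, the SERCA ATPase, returns calcium to the store. Small membrane peptides bind the pump and hold it back, and phosphorylation of phospholamban lifts that brake under adrenergic stimulation. Inside the store calsequestrin and other acidic proteins hold calcium, and triadin and junctin tie them to the channel.

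Gene reads numbered 41862417 in animal 1 and 41790009 in animal 2. The limit for a gene with no read, set at 3 reads, was 0.0717 and 0.0718 CPM (counts for each 1e6 reads). Levels are given in TPM, the deposited measure of transcript abundance that accounts for transcript length, and only on this scale are genes set beside each other. The labelled tissue showed its markers: the summed level of 6 ventricular and general heart muscle genes (Myh6, Myl2, Myl3, Tnni3, Tnnt2 and Actc1) was 29057 TPM in animal 1 and 33662 in animal 2, against 2.54 and 3.66 TPM for 8 markers of skeletal muscle. The labels do not say which chambers were included. In whole tissue, fewer cells of a type and less RNA per cell cannot be told apart. TPM also carried a shift between the animals, a median log2 ratio of 0.22 in favour of animal 2 over the 16133 genes with at least 20 reads. The comparison of animals therefore used reads scaled by TMM, a library scaling that trims extreme genes.

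The 10 genes together held 8040 TPM in animal 1 and 9051 TPM in animal 2, a mean of 8546 ± 714 (SD, n = 2). The pump and phospholamban made up most of this sum, with mean shares of 56.5% for Atp2a2 and 28.1% for Pln. Ryr2, Hrc and Casq2 contributed 4.35%, 4.12% and 4.03%, Trdn 1.34%, Asph 1.16% and Sln 0.360%. Casq1 and Fkbp1b lay at the low end, with 1.74 ± 0.375 and 0.295 ± 0.247 TPM (SD, n = 2). The order fell into steps: Atp2a2 lay above Pln, Pln above a group of Ryr2, Hrc and Casq2, that group above Trdn and Asph, and these above Sln, Casq1 and Fkbp1b in turn, with no overlap between steps over the 2 animals. Within the group of Ryr2, Hrc and Casq2, and between Trdn and Asph, the ranges of the 2 animals overlapped.

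**Figure D1:**
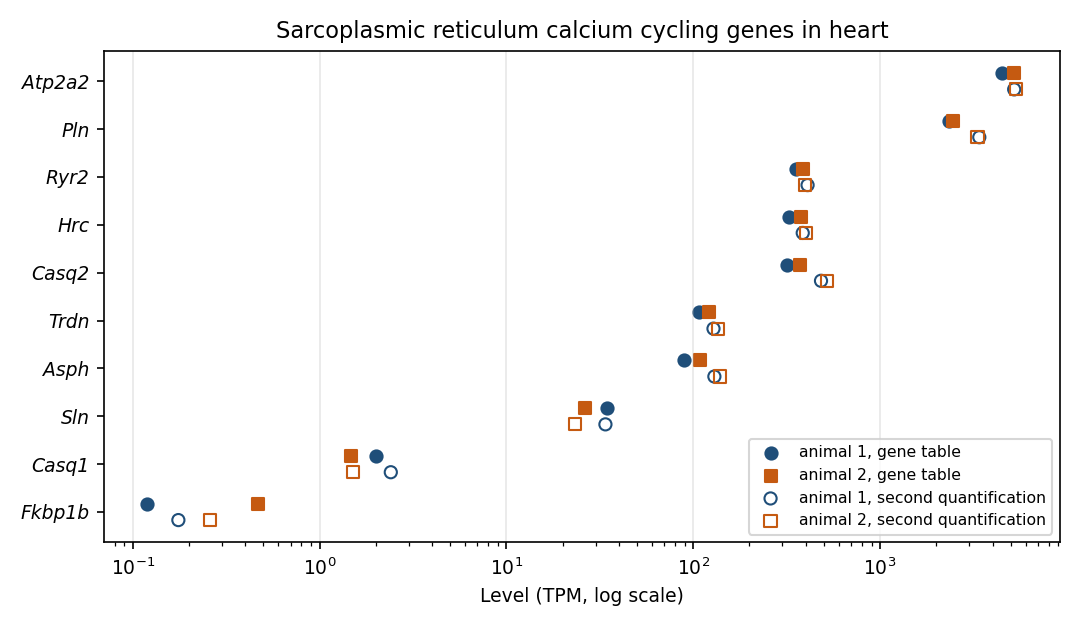
Level of each of the 10 genes in TPM on a log axis, with circles for animal 1 and squares for animal 2, filled for the gene table and open for the second quantification. Values run from 5188 TPM for Atp2a2 in animal 2 down to 0.12 TPM for Fkbp1b in animal 1, and the 2 animals lie close together for every gene above Sln.

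Atp2a2 (ENSMUSG00000029467.15, mm10 chr5:122453513-122502225, minus strand) encodes SERCA2, the pump itself. It was at 4483 TPM in animal 1 and 5188 TPM in animal 2, resting on 659951 and 687846 reads. Among 22015 protein-coding genes of the nuclear genome its mean level ranked 7. Its RNA came mostly as a single form: transcript Atp2a2-202, with 21 exons and a coding sequence of 998 codons, held 77.2% and 76.2% of the gene's TPM. This is the SERCA2a form, the pump of heart and slow skeletal muscle. Atp2a2-201, of 1044 codons, encodes the longer SERCA2b form found in most tissues and held 21.2% and 22.3%. SERCA2a transcripts were 3.65 and 3.42 times as abundant as SERCA2b transcripts in animals 1 and 2. In the second quantification the ratio was 5.23 and 4.91, so its size depended on the quantification by more than the animals differed, while the leading form was the same.

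The 2 pump forms share the first 2983 coding bases and end differently. Their starts before the coding sequence differ too. Their ends are shown from the GENCODE M21 transcripts of mm10, 5′ to 3′ on the coding strand, with the 30 shared bases before the fork in lower case and each form's own bases in capitals up to the stop codon. The SERCA2a end adds 14 bases, and the SERCA2b end adds 152 bases that encode its additional membrane-spanning tail. The stop codon of Atp2a2-202 ends at base 122454291 of chromosome 5 and that of Atp2a2-201 at base 122457151.
Atp2a2-202: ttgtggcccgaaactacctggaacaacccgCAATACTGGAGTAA
Atp2a2-201: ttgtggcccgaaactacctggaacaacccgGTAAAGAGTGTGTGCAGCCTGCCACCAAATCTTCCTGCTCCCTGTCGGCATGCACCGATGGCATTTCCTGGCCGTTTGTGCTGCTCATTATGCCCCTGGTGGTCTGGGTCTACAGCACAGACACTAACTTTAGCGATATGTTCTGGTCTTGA

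Pln (ENSMUSG00000038583.13, mm10 chr10:53337667-53345987, plus strand) encodes phospholamban, the main brake on the pump in heart. It was at 2324 TPM in animal 1 and 2466 in animal 2, from 129091 and 129336 reads, and ranked 14 among the nuclear protein-coding genes. Cep85l spans the locus on the opposite strand and held 6.43 ± 1.00 TPM (SD, n = 2), and the labels do not say whether reads were counted by strand. Sln (ENSMUSG00000042045.6, mm10 chr9:53850164-53854560, plus strand) encodes sarcolipin, the related inhibitor known for its expression in atria and skeletal muscle. It was at 34.5 TPM in animal 1 and 26.2 in animal 2, from 1562 and 1067 reads. Phospholamban RNA was thus 67.3 and 94.0 times as abundant as sarcolipin RNA on the TPM scale.

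Both inhibitors are read from very short coding sequences, shown whole because every annotated transcript of each gene that reaches a stop codon carries the same one. Pln has 52 codons at mm10 chr10:53343864-53344022, and the capitals mark codons 16 and 17, the serine and threonine whose phosphorylation releases the pump. Sln has 31 codons at mm10 chr9:53853473-53853568, and the capitals mark its last 5 sense codons, 27 to 31, which encode the luminal tail. Both are on the plus strand and written 5′ to 3′ from the GENCODE M21 transcripts.
Pln: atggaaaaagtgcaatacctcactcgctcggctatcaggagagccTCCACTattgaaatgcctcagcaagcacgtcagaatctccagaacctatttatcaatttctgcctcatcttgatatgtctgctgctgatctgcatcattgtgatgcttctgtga
Sln: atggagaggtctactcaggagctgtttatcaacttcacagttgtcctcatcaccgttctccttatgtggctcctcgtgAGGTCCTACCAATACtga

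The pump to phospholamban ratio was 1.93 in animal 1 and 2.10 in animal 2, a mean of 2.02 ± 0.123 (SD, n = 2). Both animals thus held more pump RNA than phospholamban RNA. Counting SERCA2a transcripts alone, the ratio to all Pln RNA was 1.49 and 1.60. The pump to sarcolipin ratio was 130 and 198, a mean of 164 ± 48.0, and it followed the difference of Sln between the animals. Adding Sln to Pln changed the ratio little, to 1.90 and 2.08 (1.99 ± 0.128). A paired exact test over 2 animals cannot go below p = 0.5, so none was made. The second quantification gave lower pump to phospholamban ratios, 1.54 and 1.61, and a mean of 1.57 ± 0.0531. That gap of the 2 quantifications exceeded the gap of the 2 animals, because Pln was at 3396 and 3323 TPM there while Atp2a2 was at 5219 and 5357. These are RNA ratios; no protein was measured.

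**Figure D2:**
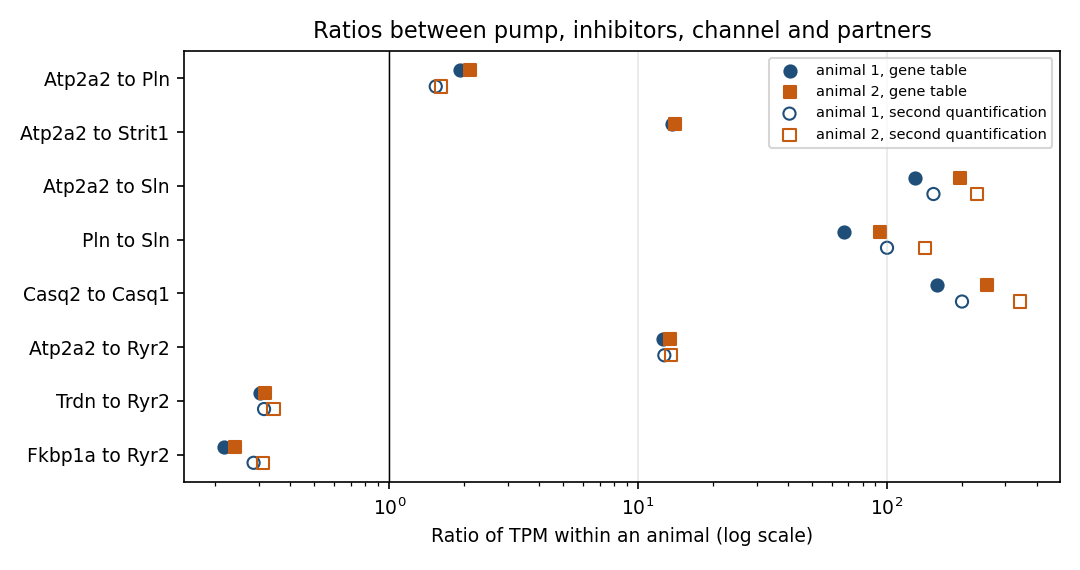
Ratios of TPM within an animal on a log axis, with a line at 1, circles for animal 1 and squares for animal 2, filled for the gene table and open for the second quantification. Atp2a2 to Pln lies at 1.93 and 2.10 for the gene table, while Atp2a2 to Sln and Casq2 to Casq1 lie above 100 with a wider gap between the animals. Strit1 is at 0 in the second quantification, so its ratio has filled points alone.

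Transcript use of Pln differed between the quantifications in both animals. The gene has 6 annotated transcripts that encode the same peptide and differ outside it. In the gene table's quantification Pln-201, the form with the longest end after the stop codon, held 56.5% and 60.5% of the gene's TPM, Pln-205 held 31.4% and 27.9%, and Pln-204 held 9.37% and 8.85%. In the second quantification Pln-204 led with 57.5% and 57.0%, Pln-201 held 40.1% and 41.0%, and Pln-205 was listed at 0. Grouped by end, the 3 transcripts with 1066 to 1965 bases after the stop codon held 58.2% and 62.6%, and 41.7% and 42.8% in the second quantification. The 3 with 161 to 249 bases held the rest. Against the long Pln-201 alone the pump ratio was 3.41 and 3.48, and 3.83 and 3.93 in the second quantification. In proportion these were closer between the quantifications than the ratios to all Pln RNA, while in absolute units the gaps were of similar size. Pln was the only member of the 7 with several transcripts and at least 1000 reads whose leading transcript differed between the quantifications. Among 6410 such genes of the nuclear genome the leading transcript was the same for 77.5%.

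Other peptides act on the same pump, and 4 of them were measured beside Pln and Sln. Strit1 (annotated as Gm34302) encodes DWORF, a peptide that raises pump activity by displacing the inhibitors. It was at 328 TPM in animal 1 and 368 in animal 2, from 1754 and 1767 reads, above Sln in both animals: 9.51 and 14.0 times its level. Pump RNA was 13.7 and 14.1 times, and phospholamban RNA 7.08 and 6.70 times, as abundant as Strit1 RNA. The Strit1 level is uncertain, since its annotated transcript has 243 bases and the gene was listed at 0 in the second quantification. 1810037I17Rik, which encodes another-regulin, an inhibitor made in many tissues, was at 35.6 ± 6.10 TPM (SD, n = 2). Mrln, which encodes the skeletal muscle inhibitor myoregulin, had 20 and 17 reads and 1.63 ± 0.205 TPM. Smim6, which encodes the epithelial inhibitor endoregulin, had 2 and 1 reads, within the limit of 3 reads. The other pump genes were far lower than Atp2a2: Atp2a3, the pump of many non-muscle cells, was at 5.74 ± 0.919 TPM, and Atp2a1, the pump of fast skeletal muscle, at 0.62 TPM in animal 1 and 0.47 in animal 2.

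Ryr2 (ENSMUSG00000021313.16, mm10 chr13:11553102-12106945, minus strand) encodes the release channel of heart, a tetramer of very large subunits. It was at 357 TPM in animal 1 and 386 in animal 2. Its reads, 183859 and 184019, outnumbered those of Pln although its TPM was lower, as a transcript of 16814 bases yields more reads per molecule. There were 12.6 and 13.5 pump transcripts per channel transcript, a mean of 13.0 ± 0.625 (SD, n = 2), and 13.2 in the second quantification. Ryr2-201, with 4966 codons, held 79.4% and 82.5% of the gene's TPM. Ryr2-203, a truncated form of 1020 codons, held 9.32% and 7.88%, and 3.53% and 3.32% in the second quantification. The 9 transcripts annotated with a retained intron held 8.89% and 7.07% together. The other ryanodine receptors were far lower: Ryr3 at 0.55 ± 0.198 TPM and Ryr1, the skeletal muscle channel, at 0.055 ± 0.0354 TPM from 15 and 12 reads.

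Inside the store, Casq2 and Hrc were expressed at nearly the same level as the channel. Casq2 (ENSMUSG00000027861.13, mm10 chr3:102086415-102146514, plus strand), cardiac calsequestrin and the main calcium buffer of the store, was at 317 TPM in animal 1 and 373 in animal 2. Hrc (ENSMUSG00000038239.11, mm10 chr7:45335290-45338974, plus strand), the histidine-rich calcium-binding protein that binds both triadin and the pump, was at 325 and 379 TPM. Per channel transcript there were 0.888 and 0.968 Casq2 transcripts and 0.912 and 0.984 Hrc transcripts. The second quantification placed Casq2 at 483 and 520 TPM, above Ryr2 at 409 and 395 and Hrc at 385 and 400, so the order of these 3 genes was not the same in both.

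Casq2 also differed between the quantifications in transcript use. Casq2-201, of 415 codons, held 99.6% and 99.0% of the gene's TPM in the gene table's quantification and 74.8% and 72.2% in the second. There Casq2-202, a short non-coding transcript of 628 bases, held 19.4% and 18.2%, whereas it was at 0 in the first. All transcripts of Casq2 with no coding sequence held 25.1% and 27.6% there, against 0.360% and 0.595% in the first. Over 6826 nuclear protein-coding genes with at least 1000 reads, the second quantification gave a median of 1.19 times the first, with 0.998 and 1.55 at the 10th and 90th percentiles. Casq2 stood at 1.45, Pln at 1.40 and Asph at 1.36 times, and Atp2a2 at 1.09 and Sln at 0.941 times. Hrc was simpler: Hrc-201, of 738 codons, held 99.1% and 99.4%, and 99.2% and 99.3% in the second.

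Casq1 (ENSMUSG00000007122.11, mm10 chr1:172209894-172219868, minus strand), the calsequestrin of skeletal muscle, was low among the members but ranked 10274 among the 22015 nuclear protein-coding genes. It had 111 reads in animal 1 and 86 in animal 2, with exact 95% Poisson intervals of 91.3 to 134 and 68.8 to 106, or 2.00 and 1.47 TPM. Casq2 was 158 and 254 times as abundant, and 201 and 343 times in the second quantification. The coding sequences of both genes align with 63.0% identical positions and at most 25 identical bases in a row. Casq1-201, of 405 codons, held 73.1% of the TPM in animal 1 and all of it in animal 2. The rest in animal 1 was mainly Casq1-202, annotated as a retained intron, with 21.9%. Each of the 8 markers of skeletal muscle had a lower mean level than Casq1, at most 1.23 TPM (Tnni2). Together the 8 genes summed to 115 and 76 reads in animals 1 and 2. Of these, 6 were under 1 TPM and Myod1 was at 0 in both animals. Reads in animals 1 and 2 were 22 and 1 for Myh1, 18 and 0 for Myh2 and 10 and 4 for Myh4. They were 26 and 28 for Tnni2, 10 and 10 for Tnnt3, 15 and 20 for Mylpf and 14 and 13 for Actn3. The part of skeletal muscle RNA in the Casq1 level was not tested.

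Trdn (ENSMUSG00000019787.9, mm10 chr10:33080554-33476709, plus strand) encodes triadin, which links calsequestrin to the channel. It was at 108 TPM in animal 1 and 122 in animal 2, or 0.302 and 0.316 transcripts per channel transcript. Trdn-202, the short cardiac form of 293 codons, led with 59.2% and 56.6% of the gene's TPM, and with 52.9% and 48.4% in the second quantification. Trdn-204, annotated as a retained intron, runs over the last exon of Trdn-202. It held 20.7% ± 0.325 (SD, n = 2), and 15.8% and 15.2% in the second quantification. The long form known from skeletal muscle, Trdn-201 with 693 codons, held 9.12% and 9.26%, and 11.7% and 10.9% in the second quantification. Trdn-208, of 277 codons, held 7.09% and 7.30%, and 15.3% and 14.8% in the second. The antisense gene D830005E20Rik overlaps Trdn beyond the end of Trdn-202, where the long form runs, and had 893 and 875 reads. Only the spans of both genes were compared: overlap of their exons was not tested, and the strand setting was not given. The posterior spread of the Trdn count, a signal of read assignment, was 0.

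The forks between the triadin forms are shown from the GENCODE M21 transcripts of mm10, chromosome 10, plus strand, 5′ to 3′. Trdn-202 and Trdn-201 share their first 848 coding bases. The last 30 of these are in lower case, and capitals mark the 34 bases of Trdn-202 up to its stop codon and the first 60 of the 1234 bases of Trdn-201. Trdn-208 leaves Trdn-202 earlier, after 787 shared bases, and its 47 own bases are in capitals.
Trdn-202: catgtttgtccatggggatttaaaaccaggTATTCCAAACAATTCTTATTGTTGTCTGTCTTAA
Trdn-201: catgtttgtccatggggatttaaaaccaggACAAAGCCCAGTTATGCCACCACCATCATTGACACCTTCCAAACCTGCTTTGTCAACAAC
Trdn-208: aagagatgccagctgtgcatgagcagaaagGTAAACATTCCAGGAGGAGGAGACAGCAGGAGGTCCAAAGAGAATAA

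Asph (ENSMUSG00000028207.18, mm10 chr4:9448069-9669344, minus strand) is a composite gene. From 1 locus it encodes junctin, which anchors calsequestrin beside triadin, junctate, a calcium-binding relative, and aspartyl/asparaginyl beta-hydroxylase, an enzyme of the endoplasmic reticulum. The gene was at 89.7 TPM in animal 1 and 109 in animal 2, or 0.833 and 0.892 times Trdn. It has 20 transcripts, and the 12 that reach a stop codon encode 12 coding sequences with 4 stop positions. Forms ending at base 9621880 of chromosome 4 held the largest share, 41.7% and 44.0%, led by Asph-206 of 207 codons with 35.1% and 35.7%. Asph-201, of 245 codons, ends at the same base and held 6.65% and 8.26%, and 20.3% and 22.0% in the second quantification. Forms ending at base 9576966, led by Asph-208 of 272 codons, held 20.7% and 19.9%. The long forms ending at base 9453295, which carry the hydroxylase part (Asph-202, of 741 codons, and 2 others), held 12.6% and 12.0%. The split among these long forms was not stable. Asph-211 held 5.06% in animal 1 and 0 in animal 2, and Asph-212 held 0.0557% and 5.80%. Asph-220, whose annotation stops before a stop codon, held 18.3% and 18.2%, and 12.3% and 12.1% in the second quantification.

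The last 60 coding bases of 1 form at each of these 3 stop positions show how the products part. Each form had the highest mean share at its stop in the gene table's quantification; at base 9453295 Asph-211 was higher in the second, at 5.91% against 4.87% for Asph-202. They are written 5′ to 3′ on the coding strand from the GENCODE M21 transcripts of mm10, with bases of the last coding exon in capitals. Asph-208 keeps only 8 bases in its last coding exon, while the ends of Asph-206 and Asph-202 lie wholly within theirs.
Asph-206: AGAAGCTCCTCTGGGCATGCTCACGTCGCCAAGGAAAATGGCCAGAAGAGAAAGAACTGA
Asph-208: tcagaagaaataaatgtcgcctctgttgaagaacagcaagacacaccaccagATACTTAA
Asph-202: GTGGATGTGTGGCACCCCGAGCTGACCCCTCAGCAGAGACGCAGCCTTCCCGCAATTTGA

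**Figure D3:**
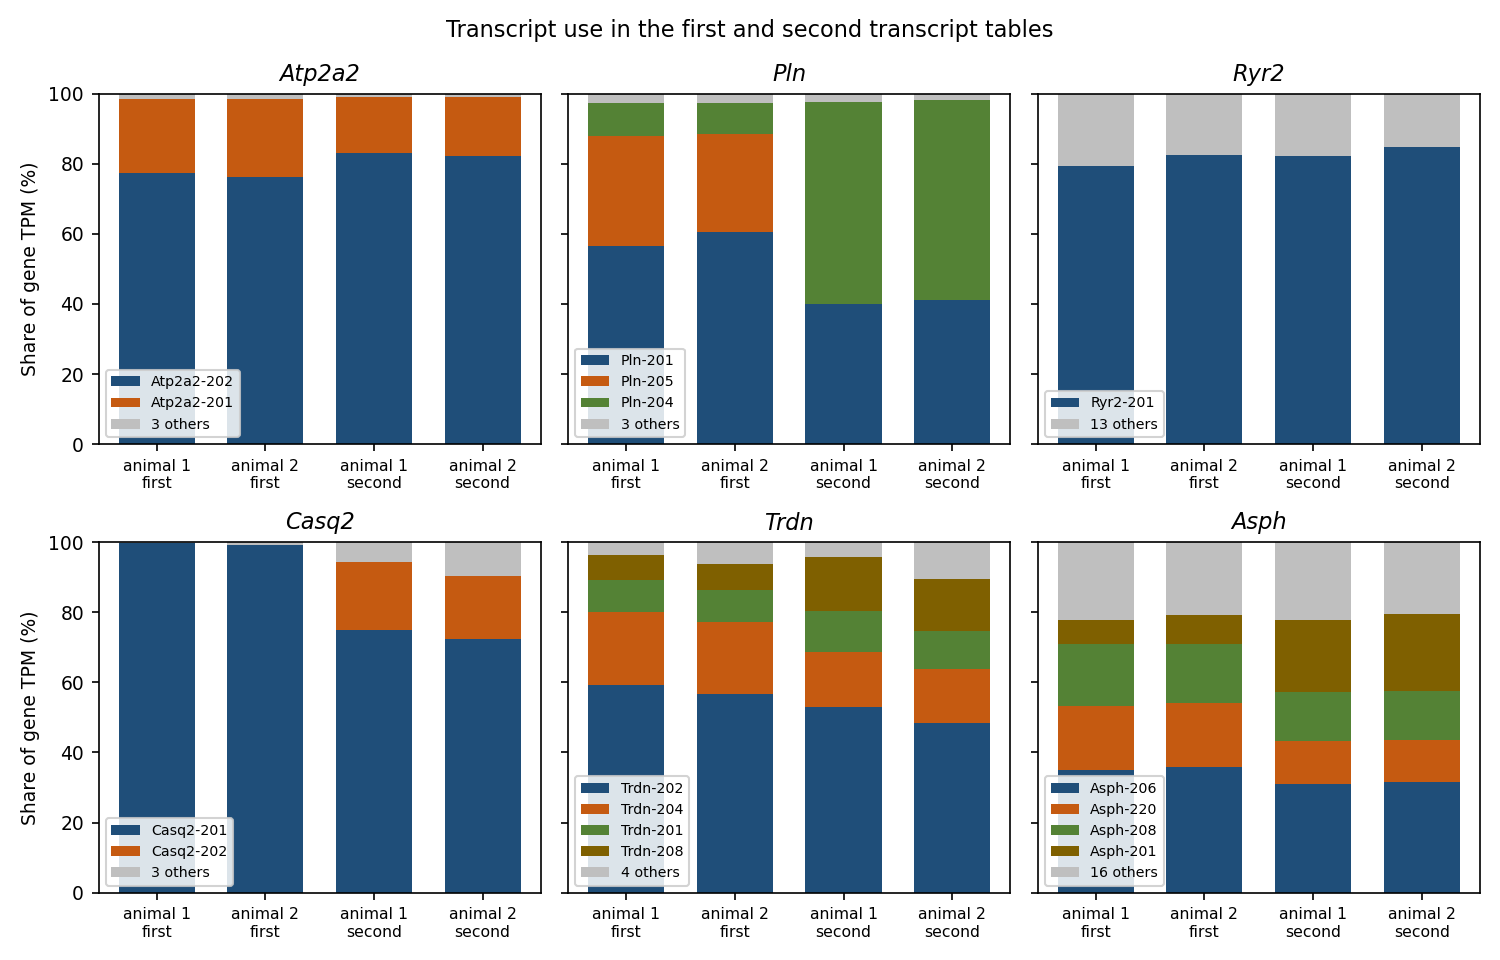
Share of gene TPM by transcript for Atp2a2, Pln, Ryr2, Casq2, Trdn and Asph, as stacked bars for animals 1 and 2 in the first and in the second transcript table, with grey for the transcripts not named. The 2 animals resemble each other within a table, and the leading transcript changes between tables for Pln alone, from Pln-201 to Pln-204.

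Fkbp1b (ENSMUSG00000020635.8, mm10 chr12:4833174-4841591, minus strand) encodes FKBP12.6, a small protein that binds the cardiac channel. It had 4 reads in animal 1 and 9 in animal 2, with exact 95% Poisson intervals of 1.09 to 10.2 and 4.12 to 17.1, or 0.12 and 0.47 TPM, and 0.176 and 0.260 TPM in the second quantification. Fkbp1b-201, of 108 codons, held all of the gene's TPM in animal 1 and 59.6% in animal 2, and Fkbp1b-202, of 246 bases, held the other 40.4%, too few reads to compare. These counts are barely above the limit of 3 reads, and with 13 reads in all the gene was left out of the comparison of animals. Its paralog Fkbp1a, which encodes FKBP12, had 3365 and 3650 reads and 77.3 and 92.6 TPM, or 0.217 and 0.240 transcripts per Ryr2 transcript. Their coding sequences, of 327 bases each, are 74.9% identical with no identical run over 14 bases. The labels do not say how any reads that align to both genes were assigned. The posterior spread of the gene count, a signal of read assignment, was 0 for both.

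Between the 2 animals, 9 of the 10 genes could be compared. An exact binomial test of the scaled reads sees counting error alone and sets library against library, with no replicate check. None of the 9 differed by at least 2-fold at an adjusted p under 0.05, while 1.3% of all 16133 genes tested did so, 0.446% with more in animal 2 and 0.855% with more in animal 1; at an unadjusted p under 0.05 with no fold minimum 6 of the 9 differed, against 21.4% of all genes. With adjustment and no fold minimum 4 of the 9 differed beyond counting error, all with more scaled reads in animal 1, against 11.1% of all genes in either direction, 4.65% with more in animal 1 and 6.5% with more in animal 2. At the depth of these genes small differences pass the test more often: among the 6826 nuclear protein-coding genes with at least 1000 reads, 17.2% passed, with a median absolute log2 ratio of 0.06. The median log2 ratio of animal 2 over animal 1 was -0.05 over the 9 genes and -0.0024 over all genes tested.

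For 3 of the 4 the difference was small. Atp2a2 had 0.988 times the scaled reads in animal 2 (exact 95% interval 0.985 to 0.992), Pln 0.950 times (0.943 to 0.957) and Ryr2 0.949 times (0.943 to 0.955). The adjusted p of the exact binomial test was 2.77e-10 for Atp2a2, 8.79e-37 for Pln and 1.75e-54 for Ryr2. Yet all 3 turned to more in animal 2 with library totals in place of TMM and on the TPM scale, so their direction rests on the scaling. With library totals Atp2a2 passed the same test at a log2 ratio of 0.0622 (adjusted p 2.06e-135), while Pln and Ryr2 did not pass (adjusted p 0.609 and 0.676). Casq2 had 1.00 times the scaled reads in animal 2 (0.985 to 1.02) and did not differ beyond counting error. Hrc, Trdn and Asph likewise stayed within counting error, at log2 ratios of -0.0057, -0.05 and 0.02.

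Of the 9 tested members Sln differed most. With 1562 and 1067 reads it was 1.54-fold higher in animal 1 (exact 95% interval 1.43 to 1.67, adjusted p of the exact binomial test 3.36e-26). Of the 6826 nuclear protein-coding genes at 1000 reads or more, 0.278% had a log2 ratio at least as far from 0. It stayed higher in animal 1 under TMM, DESeq2 size factors, library totals, the second quantification and TPM. The other 5 atrial markers were also higher in animal 1 by the same test: Nppa 1.36-fold, Myl4 1.35-fold, Myl7 1.37-fold, Sbk2 1.24-fold and Bmp10 1.19-fold. With adjustment and no fold minimum, 4.65% of all genes tested were higher in animal 1. All 5 markers were also higher in animal 1 in unscaled reads and in TPM. With Sln the list summed to 1187 TPM in animal 1 and 1021 in animal 2, and no marker of the list was at 0. The ventricular and general heart muscle markers moved little, with log2 ratios between -0.08 and 0.10. The part of atrial tissue in the Sln difference was not tested.

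Casq1 was 1.36-fold higher in animal 1 (exact 95% interval 1.02 to 1.83) but did not pass adjustment (exact binomial test, adjusted p = 0.193). Markers of other cell types also differed between the animals. Of 5 skeletal muscle markers tested, Myh1 was 15.8-fold higher in animal 1, from 22 and 1 reads (exact 95% interval 3.75 to 958). It passed at 2-fold (exact binomial test, adjusted p = 7.67e-05), as did 0.855% of all genes tested with more in animal 1. The other 4 stayed within counting error. All 3 endothelial markers (Pecam1, Cdh5 and Kdr) and all 3 fibroblast markers (Col1a1, Dcn and Pdgfra) were higher in animal 2 beyond counting error, as were 2 of 4 smooth muscle markers. With the same adjustment and no fold minimum, 6.5% of all genes tested were higher in animal 2. In scaled reads animal 2 was at 1.09, 1.15 and 1.12 times animal 1 for Pecam1, Cdh5 and Kdr. It was at 1.27, 1.08 and 1.22 times for Col1a1, Dcn and Pdgfra. Among smooth muscle genes Myh11 was at 1.43 and Acta2 at 1.30 times, while Cnn1 (1.04) and Tagln (1.11) stayed within counting error. Summed levels were 99.2 and 132 TPM for endothelial, 166 and 218 for fibroblast, and 86.4 and 123 for smooth muscle genes. These sums carry the TPM shift in favour of animal 2. The part of these markers in the small differences of the members was not tested.

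**Figure D4:**
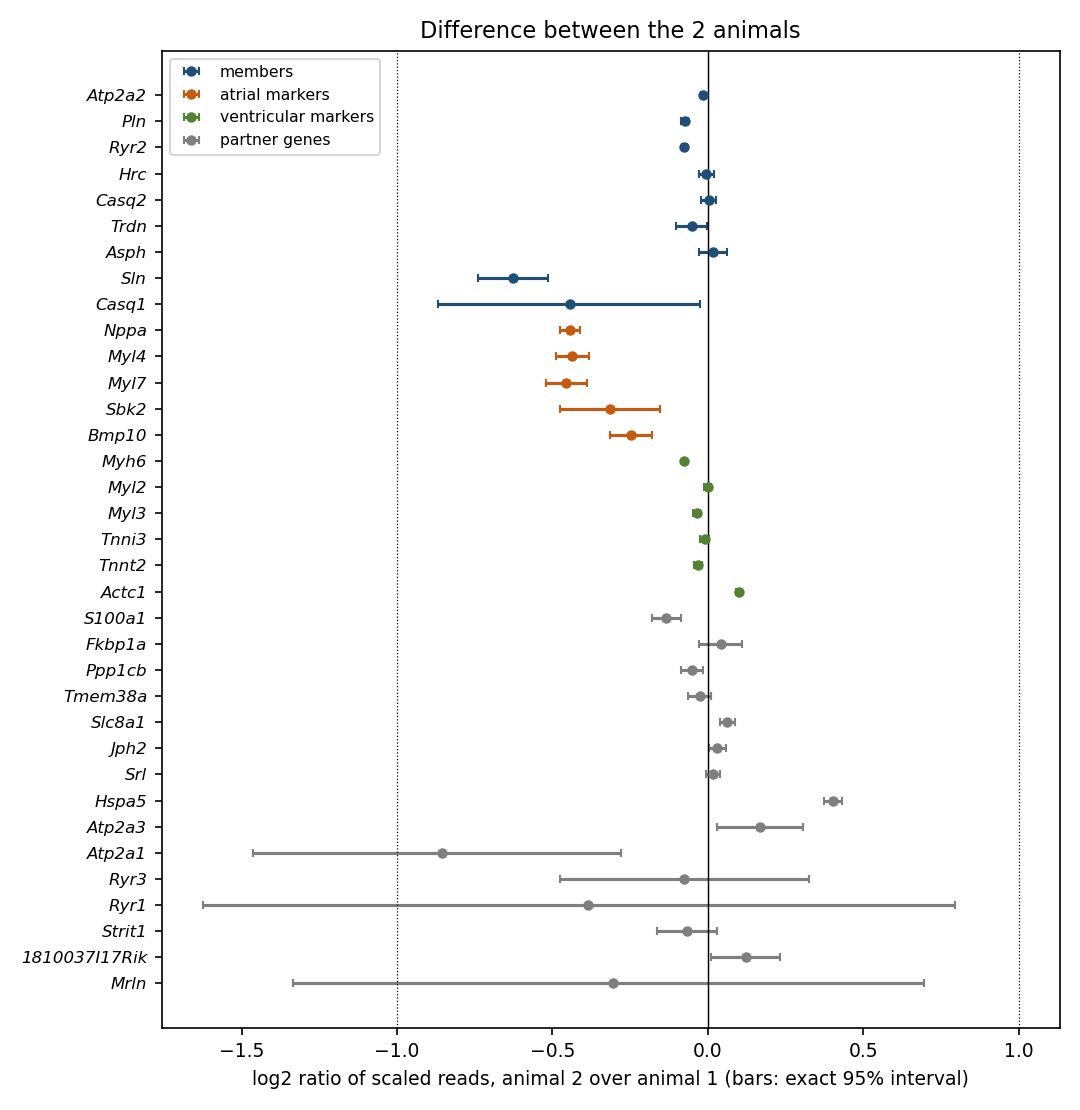
Log2 ratio of TMM-scaled reads, animal 2 over animal 1, with exact 95% intervals as bars, for the 9 tested members, 5 atrial and 6 ventricular or general heart muscle markers, and the tested partner genes named in the text as paralogs, peptides or highest in level. Dotted lines mark 2-fold, and Sln and all 5 atrial markers lie to the left of 0, with more reads in animal 1.

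A list of 41 further genes of the same system was read beside the members: other pumps and pump peptides, other release channels, channel partners, junction proteins, luminal proteins, counter-ion channels, phosphatases and kinases, and routes of calcium entry and exit. They summed to 2846 TPM in animal 1 and 3439 in animal 2, well under the 8040 and 9051 TPM of the members, and 33 of the 41 were at 1 TPM or more. Among the 8 highest, S100a1, a calcium sensor that binds channel and pump, had a mean of 371 ± 17.4 TPM (SD, n = 2, as for the values that follow). Strit1 followed at 348 ± 28.0 TPM and Srl, the luminal calcium-binding protein sarcalumenin, at 309 ± 43.0 TPM. S100a1 was thus about as abundant as Ryr2, Hrc and Casq2, as was Strit1 in the gene table, although it was at 0 in the second quantification, and no partner reached the level of Pln. Hspa5, a chaperone of the reticulum, was at 271 ± 84.6 TPM, with the widest spread of the 8. Ppp1cb, a catalytic subunit of the phosphatase that acts on phospholamban, was at 173 ± 17.5 TPM, and Slc8a1, the sodium-calcium exchanger that carries calcium out of the cell, at 173 ± 20.5 TPM. Tmem38a, a counter-ion channel of the store, was at 169 ± 16.2 TPM, and Jph2, which holds surface membrane and store together, at 158 ± 20.1 TPM.

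Of the 37 partners with at least 20 reads, none differed by 2-fold or more between the animals, against the same 1.3% of all genes, and 15 differed at an unadjusted p under 0.05 with no fold minimum, against 21.4% of all genes. With adjustment 6 were higher in animal 2 and 3 in animal 1, while 28 stayed within counting error. Of all genes tested, 6.5% were higher in animal 2 and 4.65% in animal 1 by the same rule. The 6 included Hspa5 at 1.32-fold and Calr, the calcium-binding chaperone calreticulin, at 1.25-fold, with Stim2, Canx and Slc8a1 between 1.04 and 1.20-fold. The 3 higher in animal 1 were Atp2a1 at 1.81-fold, from 69 and 40 reads (exact 95% interval 1.22 to 2.76), Cacna1c, the main subunit of the surface calcium channel, at 1.16-fold and S100a1 at 1.10-fold; on the TPM scale Cacna1c and S100a1 were slightly higher in animal 2. The median log2 ratio of the 37 was 0.02.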

How the data were processed

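The 10 genes were matched by symbol in the GENCODE M21 annotation of mm10. The genes and all lists were chosen with earlier results of these data known. The named genes are all members and, of the 41 partners, paralogs, pump peptides, the 8 highest in mean TPM and any called at 2-fold, plus others passing with no fold minimum, chosen after their values were seen (1 gene is not reported here); named transcripts lead their gene or hold at least 10% in either quantification, with a few of lower share added after their values were seen.

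Per the file headers, the gene table and the first transcript table hold expected counts in RSEM's layout. The deposited TPM values were scaled over the whole table, which includes spike-ins. The deposited percent of each transcript within its gene matched its TPM share within 0.141 percentage points in animal 1 and 0.554 in animal 2, where the largest gap was at Fkbp1b. The gene table's posterior spread of a count, a signal of read assignment per the file headers, was at most 0.00142% of the count for Atp2a2 and 0 for the other members. That covers whole genes, and the spread of single transcripts was larger. It was 154 of 1639 reads in animal 1 and 235 of 1481 in animal 2 for Asph-202. For Atp2a2-202 it was 648 of 499080 and 643 of 512231 reads. The second transcript table follows kallisto's layout per the file headers and gives estimated counts and TPM, which were summed by gene here. For aligner, versions and strand setting: not given in the sources used here.

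Expected counts were rounded, genes with at least 20 reads kept (16133), and libraries scaled by TMM in edgeR 4.0.16 (R 4.3.3). The reads of each gene in both animals entered an exact binomial test, two-sided, in scipy 1.17.1, with Benjamini-Hochberg adjustment at 0.05 over all genes, with or without a 2-fold minimum; log2 ratios used a prior of 0.5. The test was first run on simulated data. No model of replicate spread was fitted, since there is 1 group of 2 animals. Intervals and limits cover counting error only, as reads carry no molecular identifiers. Spike-in reads were 0.596% and 0.619% of all reads, and entries that name no gene held 4 and 2 reads; both stayed out of the tests. DESeq2 1.42.0 size factors, library totals, no count filter, TPM over protein-coding transcripts or genes and the second quantification were alternatives.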

Additional observations from a re-analysis of the deposited data

How the results depend on the processing

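No paired analysis was possible because there is 1 group. Leaving out either animal gave ranges of 8040 to 9051 TPM for the sum of the 10 genes, 1.93 to 2.10 for pump to phospholamban, 130 to 198 for pump to sarcolipin and 158 to 254 for Casq2 to Casq1; the comparison of animals needs both. The sum was 10241 TPM in the second quantification and 20511 TPM when TPM was rescaled over nuclear protein-coding genes. Pump to phospholamban was 1.57 in the second quantification, and 2.71 with reads per kilobase of the longest coding transcript, an alternative chosen after seeing the data; with Sln added to Pln the values were 1.56 and 2.67. The cause was not tested.

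No member or partner was called at 2-fold with an adjusted p under 0.05 under any scaling, filter or quantification tried. With no count filter Fkbp1b reached a log2 ratio of 1.00, from 4 and 9 reads, but did not pass adjustment. With library totals 5 members passed with no fold minimum, where 20.5% of all genes did (Atp2a2, Hrc, Casq2 and Asph higher in animal 2, Sln in animal 1), while DESeq2 size factors, no count filter and the second quantification kept the same 4 genes. The log2 ratio of animal 2 over animal 1 changed sign with library totals for Atp2a2 (0.0622), Pln (0.0052), Ryr2 (0.0037), Hrc (0.0736) and Trdn (0.0266), with deposited TPM for Atp2a2 (0.21), Pln (0.0858), Ryr2 (0.11), Hrc (0.22) and Trdn (0.18), and in the second quantification for Hrc (0.0062). Both scales lack the correction for composition. Of 36 such values with a test 28 kept direction and side of the threshold, and of 9 on the TPM scale, which had no test, 4 kept direction. Depth limits Fkbp1b and, less so, Casq1.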
